A study of Saccharomyces cerevisiae W303 with 9 samples.

Results

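The genes described here are 59 budding yeast loci that encode factors of ribosome assembly, chosen by name and role (nucleolar NOP, RRP, UTP, DBP and RPF genes with partners such as NUG1, RLP24 and NOG1) out of 7127 features in the count table. The rule uses names and roles, not expression values, but the genes were chosen with earlier results of these data known. The list as a whole was therefore given no test of its own. They fall into 8 role classes: 3 core proteins of box C/D and 3 of box H/ACA snoRNPs, 14 factors of the small subunit processome, 3 of pre-40S particles, 7 DEAD-box helicases, 4 GTPases, 21 assembly factors of pre-60S particles, and 4 factors of 60S export and late maturation. In the RefSeq annotation of genome build R64, the notes of 59 of the 59 name a ribosomal particle, rRNA, a snoRNP or the nucleolus, against 759 of 6008 genes with a coding sequence.

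Polyadenylated RNA of Saccharomyces cerevisiae, strain background W303, was sequenced from 3 strains with 3 libraries each. The construct strain lacks AIM29 and carries pmTDH3-ZPR1, the deletion strain is the aim29 deletion mutant with no added ZPR1, and the wild type carries neither change. Zpr1 is a chaperone of the translation elongation factor eEF1A and Aim29 its cofactor. Per the labels' protocols, 3 isolates of each strain grew exponentially in YPD, a rich glucose medium, and 1 OD600 unit of cells was taken at an OD600 between 0.4 and 0.6. The construct and deletion strains both carry the AIM29 deletion, and no strain with the construct and an intact AIM29 was analysed here. The labels do not say whether the isolates were independently made strains, so the p-values measure the spread between these 9 libraries.

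Ribosome assembly begins in the nucleolus, where RNA polymerase I makes a long pre-rRNA that is modified by snoRNPs, folded and cut. The small subunit processome forms on its 5′ part and gives rise to pre-40S particles, while pre-60S particles form on its 3′ part, pass through rounds of remodelling by helicases and GTPases, and are exported to the cytoplasm. In budding yeast the genes of these factors are transcribed as a large regulon that responds to nutrients and stress, and their promoters are known for the sequence elements PAC and RRPE.

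Total counts were 18044486 to 20140071 in the construct libraries, 14380639 to 14586083 in the deletion libraries and 15601784 to 17140665 in the wild-type libraries, so depth differed between strains without overlap. A count of 3 in a library, taken as the floor, corresponded to 0.149 to 0.209 CPM (library-size-scaled counts, with the TMM composition factors of edgeR). AIM29 stood at 7.46, 7.05 and 5.17 CPM in construct, 0.782, 3.87 and 3.63 CPM in deletion, and 76, 82.2 and 76.9 CPM in wild-type libraries. ZPR1 stood at 5645, 4856 and 5639.6 CPM in construct, 445, 399.5 and 421 CPM in deletion, and 329, 322 and 337 CPM in wild-type libraries. Both fit the strain labels. The biological coefficient of variation across genes was 14.8% in construct, 3.76% in deletion and 5.22% in wild-type libraries, and the median SD of the 59 genes was 0.14, 0.05 and 0.04 log2 units in the same strains. Construct replicates 2 and 3 had the lowest library quality weights in limma, 0.342 and 0.169, where the other 7 libraries had 1.16 to 2.56. The a-specific genes were read at 38 to 13306 counts and the alpha-specific genes at 11 to 662 counts per library.

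All 59 genes passed the filter on low counts that left 5970 features to test, with 378 counts (RRP15) to 33663 counts (NOP1) as the lowest and highest single-library values. No 50-base stretch of any of the 59 coding sequences occurred elsewhere in the R64 genome. NOG2 was the only one to overlap another annotated gene. Its coding sequence is in 2 parts, and the snoRNA gene SNR191 lies within the span of the gene, intron included, on the same strand. The nearest of the 59 to AIM29 is RPF2, 11830 bases away with 6 protein-coding genes between them.

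The sequences before 4 genes are shown because these are the genes that passed the test in a comparison below: NUG1, RLP24 and NOP16 in the deletion strain against the wild type, and NOG2 in the construct strain against the deletion strain. Each run gives bases 300 to 81 before the start codon, 5′ to 3′ on the coding strand of the R64 reference (the strain S288C, not W303), from RefSeq; the 80 bases nearest the start codon are left out. Capitals mark the PAC core GATGAG on either strand and the RRPE core AAAATTTT, which is its own reverse complement. Where PAC cores adjoin they share bases. The window of NUG1 (YER006W, coding sequence chrV:162723-164285) is at chrV:162423-162642 on the plus strand, that of RLP24 (YLR009W, coding sequence chrXII:166537-167136) at chrXII:166237-166456 on the plus strand, that of NOP16 (YER002W, coding sequence chrV:156803-157498) at chrV:156503-156722 on the plus strand and that of NOG2 (YNR053C, chrXIV:721120-723112 with its intron) at chrXIV:723193-723412 on the minus strand.
NUG1: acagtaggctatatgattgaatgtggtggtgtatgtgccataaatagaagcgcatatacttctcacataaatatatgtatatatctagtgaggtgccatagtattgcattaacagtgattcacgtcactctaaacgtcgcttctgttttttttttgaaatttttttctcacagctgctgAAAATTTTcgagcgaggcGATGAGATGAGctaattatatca
RLP24: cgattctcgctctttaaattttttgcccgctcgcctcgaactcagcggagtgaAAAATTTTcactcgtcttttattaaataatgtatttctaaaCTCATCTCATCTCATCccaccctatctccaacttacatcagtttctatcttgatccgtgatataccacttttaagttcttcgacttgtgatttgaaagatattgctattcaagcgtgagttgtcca
NOP16: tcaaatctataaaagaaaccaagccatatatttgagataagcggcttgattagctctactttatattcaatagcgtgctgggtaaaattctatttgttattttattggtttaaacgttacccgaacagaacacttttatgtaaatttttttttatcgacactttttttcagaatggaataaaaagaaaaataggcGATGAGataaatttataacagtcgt
NOG2: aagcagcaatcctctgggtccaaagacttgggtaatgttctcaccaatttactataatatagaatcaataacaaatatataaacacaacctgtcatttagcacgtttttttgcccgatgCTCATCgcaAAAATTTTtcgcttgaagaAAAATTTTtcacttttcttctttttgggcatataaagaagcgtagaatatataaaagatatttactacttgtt
NUG1 held 2 PAC cores and 1 RRPE core, RLP24 held 3 and 1, NOP16 held 1 and none, and NOG2 held 1 and 2. A match describes the letters in the window and is not evidence of a bound factor.

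Over the 300 bases before the start codon, searched on both strands, the PAC core was present in 55 of the 59 windows (93.2%) and in 1146 of the 5988 windows of all protein-coding genes (19.1%). The RRPE core was present in 50 of the 59 (84.7%) and in 564 of all 5988 (9.42%). Both were present in 47 of the 59 (79.7%) and in 267 of all windows (4.46%). UTP22, which encodes a processome subunit, was the only one of the 59 with neither. The 89 PAC matches lay at a median of 122 bases before the start codon (quartiles 101 and 145), and the 62 RRPE matches at 143 bases (quartiles 121.5 and 168.25).

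**Figure D1:**
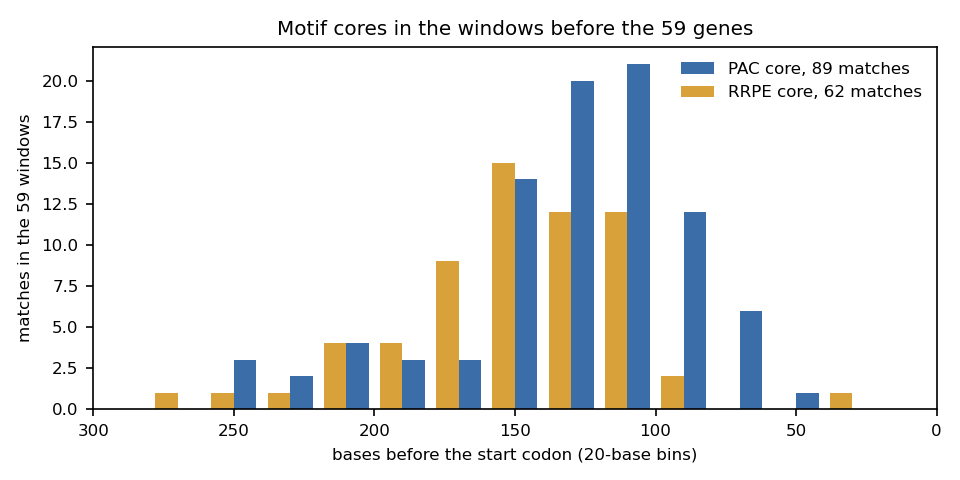
Number of PAC core and RRPE core matches in the windows before the 59 genes (vertical axis) by distance before the start codon in 20-base bins (horizontal axis, the start codon at the right). The PAC matches, median 122 bases, lie nearer to the start codon than the RRPE matches, median 143 bases.

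The motifs are also shown for the genes with the lowest p of the 6 role classes not covered above, in the deletion strain against the wild type. The stretch from the outermost motif with 10 bases on either side is shown for NOP1 (chrIV:427129-427175 on the plus strand), NHP2 (chrIV:87379-87425 on the plus strand), UTP20 (chrII:227417-227479 on the plus strand), TSR1 (chrIV:341479-341525 on the plus strand), MAK5 (chrII:528088-528213 on the plus strand) and SDA1 (chrVII:982198-982239 on the minus strand), with capitals as above.
NOP1: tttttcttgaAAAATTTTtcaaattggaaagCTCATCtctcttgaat
NHP2: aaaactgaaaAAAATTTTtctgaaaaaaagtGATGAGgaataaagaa
UTP20: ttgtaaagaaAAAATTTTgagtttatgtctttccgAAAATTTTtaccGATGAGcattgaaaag
TSR1: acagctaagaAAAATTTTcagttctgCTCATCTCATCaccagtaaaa
MAK5: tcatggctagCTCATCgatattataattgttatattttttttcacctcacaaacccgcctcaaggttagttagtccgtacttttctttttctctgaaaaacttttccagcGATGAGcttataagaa
SDA1: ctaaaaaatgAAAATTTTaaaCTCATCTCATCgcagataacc
In NOP1, NHP2, UTP20, TSR1 and SDA1 the RRPE core stood upstream of a PAC core. MAK5 held PAC cores on both strands and no RRPE core.

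Levels were compared between genes as CPM per kilobase of coding length. The 3 highest were NOP1, the rRNA 2′-O-methyltransferase known as fibrillarin, with 1640.1 ± 114 in construct, 1530.2 ± 57.5 in deletion and 1706 ± 31.9 CPM per kilobase in wild-type libraries (SD, n = 3 each), and the H/ACA proteins GAR1 and NHP2, with wild-type levels of 1023 ± 21.9 and 798 ± 11.8 CPM per kilobase. The 3 lowest were RRP15, a nucleolar 60S factor, with 37.9 ± 3.71 in construct, 36.5 ± 1.14 in deletion and 42.6 ± 2.05 CPM per kilobase in wild-type libraries, UTP20 with a wild-type level of 59.3 ± 2.73, and SPB4, a helicase of late nucleolar pre-60S particles, with 76.7 ± 3.09.

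In the deletion strain against the wild type, all 59 genes had a fitted log2 fold change below 0, against 49.2% of all features tested. The median of the 59 was −0.17, that is 11% lower, and the range ran from −0.29 for RRP1 to −0.01 for NOG2, while the median of all features was 0.00. Tested with the edgeR quasi-likelihood method and Benjamini-Hochberg adjusted p-values over all features, 3 of the 59 fell and none rose, where 2.16% of all features were called lower and 4.24% higher. At an unadjusted p under 0.05, 32 of the 59 were lower and none higher, against 10.1% of all features lower. In 55 of the 59 every deletion library was below every wild-type library, which held for 19.2% of all features; IMP4, SPB4, NOG2 and RPF1 were the exceptions. Because these are bulk samples, less RNA per cell cannot be told apart from fewer cells that make it.

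The 59 are not 59 independent observations of the strain. Within each strain the genes moved together from library to library: replicate 3 was the lowest construct library for 55 of them, replicate 2 the lowest deletion library for 56, and replicate 2 the lowest wild-type library for 49. The median over the 59 of log2 CPM minus the wild-type mean was −0.10, −0.13 and −0.34 for construct, −0.11, −0.23 and −0.15 for deletion, and 0.01, −0.04 and 0.03 for wild-type libraries. All 6 libraries without AIM29 thus lay below all 3 wild-type libraries, with construct replicate 3 the lowest. The 59 genes together took 2.52%, 2.56% and 2.16% of all counts in construct, 2.41%, 2.30% and 2.40% in deletion, and 2.77%, 2.67% and 2.79% in wild-type libraries.

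**Figure D2:**
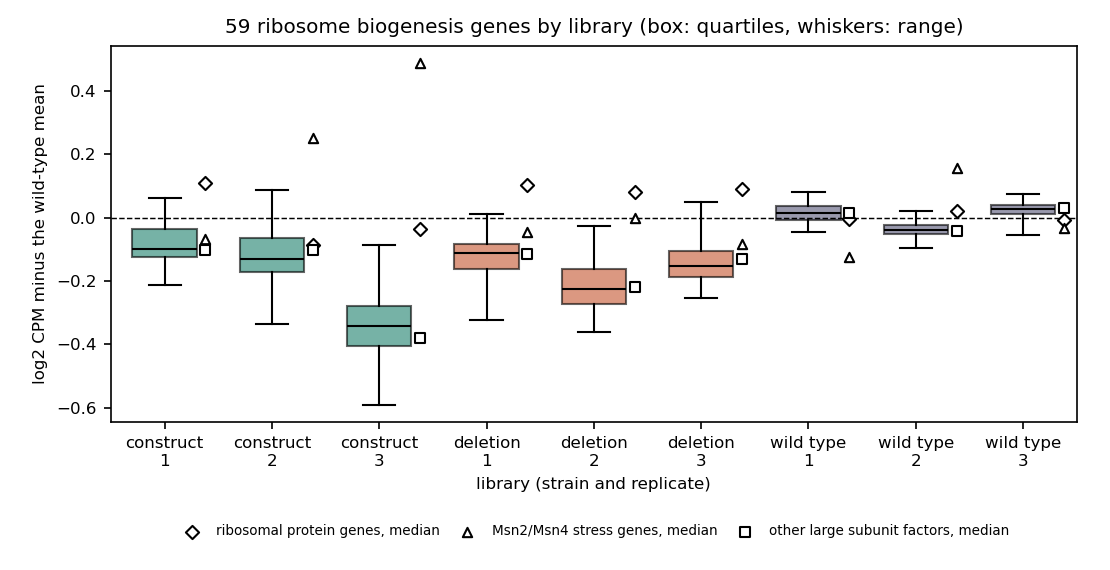
Log2 CPM minus the wild-type mean of the 59 genes in each library (vertical axis), with boxes for quartiles, whiskers for the full range, and open symbols for the medians of 3 other gene lists; libraries run from construct to deletion to wild type. The box of construct replicate 3 is the lowest, at a median of −0.34, and the wild-type medians lie within 0.04 of 0.

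**Figure D3:**
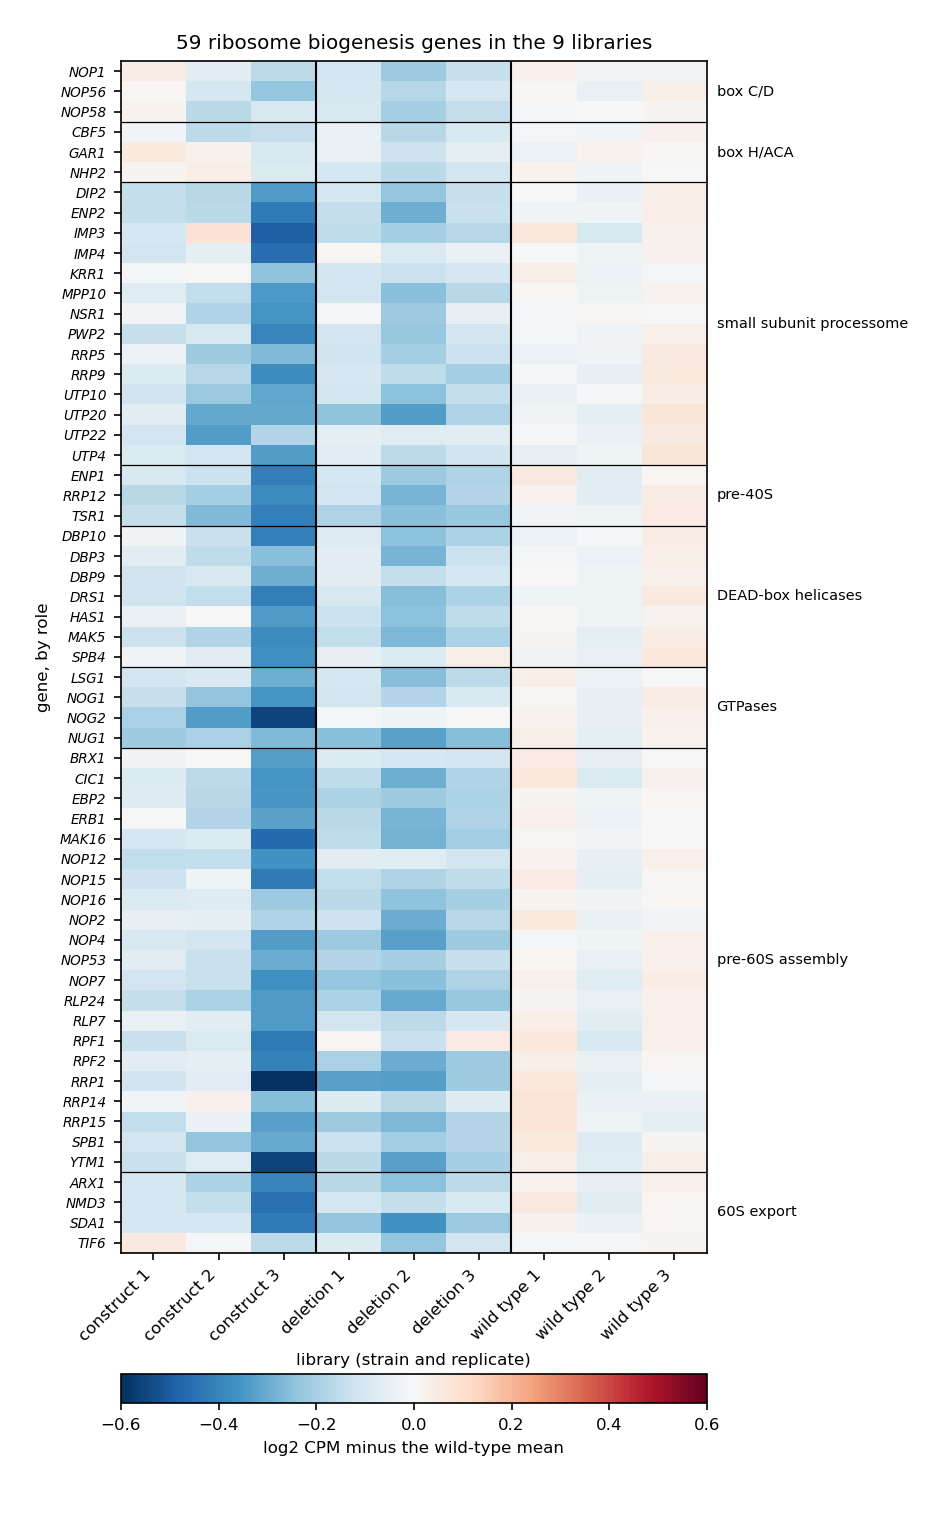
Log2 CPM minus the wild-type mean (colour, blue for lower and red for higher) of each of the 59 genes (rows, by role class) in the 9 libraries (columns). The construct and deletion columns are blue for most genes, most deeply in construct replicate 3.

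The 3 genes that fell in the deletion strain act on pre-60S particles. NUG1, a GTPase of nuclear pre-60S particles needed for their export, had 396, 378 and 396 CPM in deletion libraries, against 483, 454 and 478 CPM in wild-type libraries. The deletion libraries lay below all wild-type libraries, and the log2 fold change was −0.28 ± 0.05 (SE), 17.4% lower, with an adjusted p of 0.00718 by edgeR's quasi-likelihood test. Its construct libraries, at 407, 412 and 393 CPM, overlapped the deletion values and lay below all of the wild-type ones.

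RLP24, a pre-60S factor that resembles a ribosomal protein of the large subunit and is exchanged for it in the cytoplasm, had 289.9, 268 and 283 CPM in deletion libraries, against 334, 321 and 338 CPM in wild-type libraries. The groups did not overlap, and the log2 fold change was −0.24 ± 0.06 (adjusted p = 0.0417, edgeR). NOP16, a nucleolar constituent of pre-60S particles, had 253, 239.8 and 247 CPM in deletion libraries, against 287, 279 and 285 CPM in wild-type libraries, again without overlap. Its log2 fold change was −0.20 ± 0.05 (adjusted p = 0.0484, edgeR). In the construct libraries RLP24 stood at 299.6, 290.1 and 262 CPM and NOP16 at 267, 269 and 244 CPM, and both overlapped the deletion values. NOP4, an RNA-binding factor of 60S assembly, lay just past the threshold with −0.25 ± 0.07 (adjusted p = 0.0509, edgeR).

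**Figure D4:**
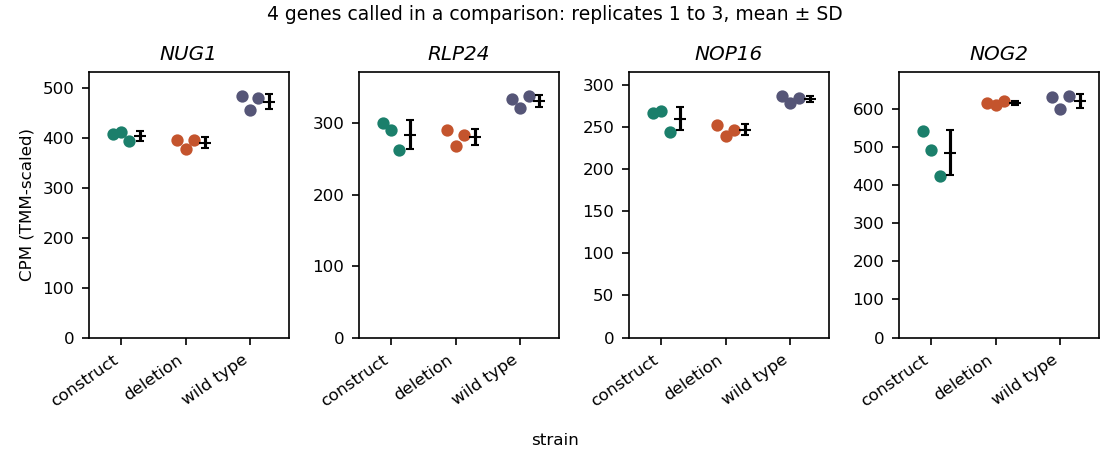
CPM in each library (points) with mean ± SD (bars, n = 3) for NUG1, RLP24, NOP16 and NOG2 in construct, deletion and wild-type strains, with the vertical axis from 0. NUG1, RLP24 and NOP16 are lower in deletion than in wild-type libraries, while NOG2 is lower in construct libraries only, from 424 to 543 CPM.

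The count called lower differed between fits, and the cause was not tested. It was 3 in the fit of all 9 libraries, which takes 1 spread per gene over strains that vary unequally, and 48 in the edgeR fit of the 6 deletion and wild-type libraries alone, where 12.7% of all features were called lower. DESeq2 called 10 (3.89% of all features) and limma-voom 2 (1.98%). Without construct replicate 3 edgeR called 33 (8.66% of all features), and without deletion replicate 2 it called 0 (0.665%).

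The role classes shared the direction in the deletion strain. Among the pre-60S assembly factors, 2 of 21 fell in the edgeR fit of all 9 libraries (RLP24 and NOP16), where 2.16% of all features were called lower. The median log2 fold change of the 21 was −0.20. At an unadjusted p under 0.05, 14 of the 21 were lower, against 10.1% of all features. The scaffold complex of NOP7, ERB1 and YTM1 had log2 fold changes of −0.22 ± 0.07, −0.21 ± 0.07 and −0.23 ± 0.11, which did not pass the test. RRP1 and MAK16, which bind the early pre-60S particle, had −0.29 ± 0.11 and −0.21 ± 0.09, and RPF1 of the same particle had −0.03 ± 0.09. The 27S pre-rRNA methyltransferase gene SPB1 had −0.17 ± 0.06 and NOP2, for a further rRNA methyltransferase, −0.20 ± 0.06. EBP2, CIC1, RPF2 and RRP15 lay between −0.24 and −0.20, and BRX1, RLP7, RRP14, NOP12, NOP15 and NOP53 between −0.17 and −0.09.

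In the other classes the edgeR fit of all 9 libraries called 1 gene lower, the GTPase gene NUG1 (2.16% of all features were called lower). SDA1, needed for 60S export, had 435, 399 and 439 CPM in deletion libraries, against 523, 498 and 517 CPM in wild-type libraries. These groups did not overlap, and the log2 fold change of −0.27 ± 0.08 had an adjusted p of 0.0778 by edgeR. The 4 export and late maturation genes had a median of −0.17, with ARX1, a pre-60S export factor, at −0.19 ± 0.07, TIF6, which keeps the subunits apart, at −0.14 ± 0.06, and NMD3, the Crm1 adapter, at −0.12 ± 0.08. The GTPase genes NOG1 and LSG1, the last of which releases Nmd3 in the cytoplasm, had −0.12 ± 0.06 and −0.17 ± 0.06.

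Among the 7 DEAD-box helicase genes the median was −0.17. None was called by edgeR in the fit of all 9 libraries, by DESeq2 or by limma-voom. At an unadjusted p under 0.05, 3 were lower, where 10.1% of all features were. With quality weights limma-voom called 6 lower (12.3% of all features), as did the edgeR fit of 6 libraries (12.7%). MAK5, which acts on pre-60S particles, had 287, 264 and 279 CPM in deletion libraries, against 321, 305 and 328 CPM in wild-type libraries. The groups were apart, and the log2 fold change was −0.20 ± 0.07 (adjusted p = 0.116, edgeR). DRS1, HAS1, DBP10, DBP3 and DBP9 lay between −0.18 and −0.10. SPB4 had 135, 132 and 143 CPM in deletion libraries, against 138, 136 and 146 CPM in wild-type libraries, and these overlapped.

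On the small subunit side, the edgeR fit of all 9 libraries called none of the 14 processome and 3 pre-40S genes. DESeq2 called 1 of each lower (3.89% of all features). With quality weights limma-voom called 11 and 3 lower (12.3% of all features), as did the edgeR fit of 6 libraries (12.7%). UTP20, a very large processome component, had 374, 352 and 389 CPM in deletion libraries, against 437, 427 and 466 CPM in wild-type libraries; the groups were apart, and the log2 fold change was −0.25 ± 0.07 (adjusted p = 0.0703, edgeR). The 14 processome genes had a median of −0.15, and 6 of them were lower at an unadjusted p under 0.05 (10.1% of all features). The UTP-A genes UTP4 and UTP10 had −0.11 ± 0.07 and −0.17 ± 0.06, the UTP-B genes PWP2 and DIP2 had −0.15 ± 0.08 and −0.16 ± 0.06, and RRP9, of the U3 snoRNP, had −0.15 ± 0.07. MPP10 and IMP3 had −0.18 ± 0.07 and −0.18 ± 0.12, while IMP4, whose product joins them in 1 complex, had −0.04 ± 0.09. RRP5, ENP2 and KRR1 lay between −0.19 and −0.11, and the nucleolin-like NSR1 had −0.09 ± 0.08.

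TSR1, a factor of cytoplasmic pre-40S particles, had 373, 355 and 361 CPM in deletion libraries, against 418, 414 and 439 CPM in wild-type libraries, without overlap. Its log2 fold change was −0.22 ± 0.07 (adjusted p = 0.0739, edgeR), and those of RRP12 and ENP1 were −0.19 ± 0.07 and −0.17 ± 0.08. The snoRNP class medians were −0.15 for box C/D and −0.10, the smallest of the 8, for box H/ACA. NOP1 had 1551, 1442 and 1524 CPM in deletion libraries, against 1715, 1661 and 1661 CPM in wild-type libraries (log2 fold change −0.16 ± 0.06). NHP2 had 349, 336 and 349 CPM in deletion libraries, against 382, 371 and 376 CPM in wild-type libraries (log2 fold change −0.13 ± 0.05). Both pairs of groups were apart, and neither passed the test. The pseudouridine synthase gene CBF5 had −0.10 ± 0.06, the box C/D genes NOP56 and NOP58 had −0.13 ± 0.06 and −0.15 ± 0.06, and GAR1 had −0.07 ± 0.05.

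In the construct strain against the wild type, all 59 genes again had a log2 fold change below 0, against 47.9% of all features tested, with a median of −0.18, or 12% lower. This comparison shares the wild-type libraries with the previous one, so the 2 directions are not independent. None of the 59 was called by edgeR's quasi-likelihood test, where 0.067% of all features were called lower and 0.117% higher. At an unadjusted p under 0.05, 36 of the 59 were lower, against 6.75% of all features. DESeq2 called 4 lower (TSR1, NOG1, NOG2 and NUG1), where it called 0.553% of all features lower. By limma-voom none was called, either without quality weights (0.067% of all features lower) or with them (0.251%). The edgeR fit of these 6 libraries alone called none (0.0168% of all features). In 38 of the 59 every construct library lay below every wild-type library, against 8.58% of all features, and in none did every construct library lie above, against 7.81%. Without construct replicate 3 the median was −0.11, and 38 of the 59 were wholly below the wild type, against 14% of all features.

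The largest of these changes was that of NOG2, −0.36 ± 0.08 (adjusted p = 0.161, edgeR). TSR1 had 383, 352 and 319 CPM in construct libraries, all below its wild-type values, and a log2 fold change of −0.27 ± 0.07. The UTP-A gene UTP10 had 541, 503 and 473 CPM in construct libraries, against 572, 585 and 605 CPM in wild-type libraries, and a log2 fold change of −0.22 ± 0.06. Both groups of each gene were apart. ARX1 had 487, 459 and 396 CPM in construct libraries, against 531, 506 and 534 CPM in wild-type libraries, also apart (log2 fold change −0.23 ± 0.07). MAK5 had 291, 280.4 and 244 CPM in construct libraries and −0.23 ± 0.07, and its construct values too were all below the wild-type ones.

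In the construct strain the class medians nearest 0 were those of the snoRNP core genes, −0.08 for box C/D and −0.01 for box H/ACA, beside −0.25 for the pre-40S genes, −0.23 for the GTPases, −0.21 for the export genes, −0.20 for the processome, −0.18 for pre-60S assembly and −0.17 for the helicases. Single genes of other classes were as near to 0, such as TIF6 at −0.04 ± 0.06 and KRR1 at −0.08 ± 0.07, while NOP56 had −0.11 ± 0.06. NOP56 had 798, 735 and 673 CPM in construct libraries, against 796, 768 and 809.7 CPM in wild-type libraries, which overlapped. CBF5 had 1006, 913 and 924 CPM in construct libraries, against 1009, 1007 and 1036 CPM in wild-type libraries, narrowly apart (log2 fold change −0.10 ± 0.06). GAR1 had 659, 645 and 592 CPM in construct libraries, against 617, 642 and 638 CPM in wild-type libraries, with the construct values on either side. Whether the snoRNP class differed from the other classes was not tested. Across the 59 genes, the log2 fold change in the construct strain had a Spearman rho of 0.33 with the level per kilobase and −0.40 with coding length; the points share libraries and are given as a description.

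**Figure D5:**
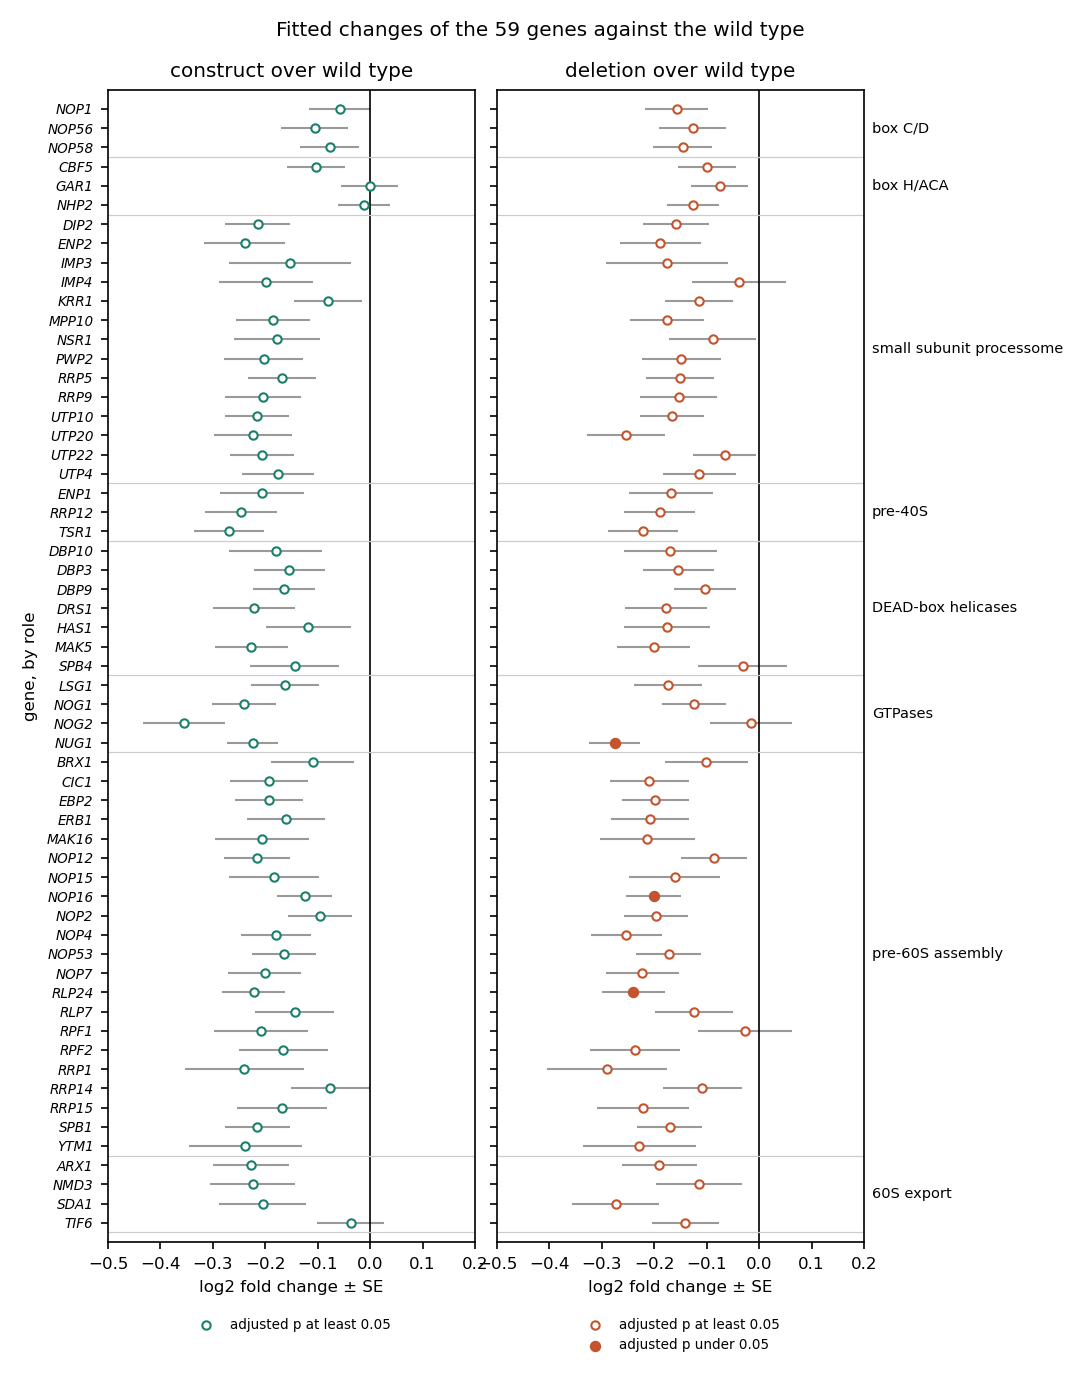
Log2 fold change ± SE (horizontal axis) of each of the 59 genes (rows, by role class) for construct over wild type (left) and deletion over wild type (right), with filled points for an adjusted p under 0.05. All 59 points lie below 0 in both panels, and the filled ones are NUG1, RLP24 and NOP16 on the right.

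Set directly against the deletion strain, the construct strain differed little over the 59 genes. The median log2 fold change was −0.01, and 31 of the 59 were below 0, against 49.2% of all features; 22 were below 0 with no composition factors and 14 with library quality weights. By edgeR's quasi-likelihood test 1 gene fell, NOG2, and none rose, where 3.72% of all features were called lower and 1.66% higher. At an unadjusted p under 0.05, 2 were lower (11.7% of all features) and 1 higher (NHP2). DESeq2 (5.16% of all features lower), limma-voom (3.84%) and limma-voom with quality weights (6.5%) each called 1 lower and none higher. All construct libraries lay below all deletion libraries for NOG2, UTP22 and NOP12 (13.5% of all features), and above them for NHP2 (12.2% of all features).

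NOG2, a GTPase that joins nuclear pre-60S particles and is needed for their maturation and export, had 543, 492 and 424 CPM in construct libraries and 616, 609.9 and 621 CPM in deletion libraries, beside 631, 601 and 634 CPM in wild-type libraries. Every construct library lay below the other 6 libraries, and the deletion and wild-type values overlapped. The log2 fold change of construct over deletion was −0.34 ± 0.08, 21.0% lower, with an adjusted p of 0.0297 by edgeR. In the edgeR fit of the 6 construct and deletion libraries alone, which called 2.07% of all features lower, the adjusted p was 0.102, and leaving out each deletion or wild-type library in turn gave 0.0512 to 0.115, while without construct replicate 3 the log2 fold change was −0.25. The snoRNA snR191 within the gene had 9.50, 11.4 and 7.10 CPM in construct, 11.4, 8.86 and 12 CPM in deletion, and 9.22, 9.79 and 9.85 CPM in wild-type libraries, and its part in the NOG2 counts was not tested.

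NHP2 had 379.9, 385 and 354 CPM in construct libraries, against 349, 336 and 349 CPM in deletion libraries, a log2 fold change of 0.11 ± 0.05 (adjusted p = 0.211, edgeR). UTP22 had 348, 298 and 333 CPM in construct libraries, against 361, 358 and 359 CPM in deletion libraries, and −0.14 ± 0.06 (adjusted p = 0.209, edgeR). NOP12, an RNA-binding factor of 60S synthesis, had 341, 341 and 294 CPM in construct libraries, against 360.1, 359 and 350.2 CPM in deletion libraries, and −0.13 ± 0.06. The groups were apart for these 3 genes, and none passed the test.

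In the remaining classes the lowest p belonged to genes whose construct and deletion libraries overlapped. NOP1 had 1730.2, 1604 and 1507 CPM in construct libraries, beside the deletion values above (log2 fold change 0.10 ± 0.06). TIF6 had 285, 272 and 246 CPM in construct libraries, against 259.5, 233 and 254 CPM in deletion libraries (0.10 ± 0.06). RRP12 had 594, 582 and 513 CPM in construct libraries, against 616, 550.0 and 589.8 CPM in deletion libraries (−0.06 ± 0.07). SPB4 had 138, 133 and 108 CPM in construct libraries, against 135, 132 and 143 CPM in deletion libraries (−0.11 ± 0.08). Construct replicate 3 was the lowest of the 3 construct libraries in each of these genes; without it the median of the 59 was 0.07, 12 of the 59 were below 0, RRP1 and RPF2 were called higher (3% of all features were), and NOG2 was called lower (5.66%).

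Genes of ribosome assembly outside the 59 were counted in the same way. Of 53 other small subunit factors, the edgeR fit of all 9 libraries called 1 lower in the deletion strain against the wild type (2.16% of all features). It was FYV7, a factor of pre-18S processing, with 83.3 ± 2.82 CPM in deletion and 99.7 ± 0.509 CPM in wild-type libraries (adjusted p = 0.0467, edgeR). The median log2 fold change of the 53 was −0.13, and 50 were below 0. At an unadjusted p under 0.05, 18 were lower (10.1% of all features). DESeq2 called 6 of them lower (3.89%), and limma-voom none (1.98%). With quality weights limma-voom called 27 lower (12.3%), and the edgeR fit of 6 libraries 29 (12.7%). In 33 of the 53 every deletion library was below every wild-type library (19.2% of all features). Of 48 other large subunit factors the edgeR fit of all 9 libraries called none, and the median was −0.15. At an unadjusted p under 0.05, 17 were lower (10.1% of all features). In 33 of the 48 every deletion library was below every wild-type library (19.2% of all features). DESeq2 called 7 of them lower (3.89% of all features), and limma-voom none (1.98%). With quality weights limma-voom called 29 lower (12.3%), and the edgeR fit of 6 libraries called 31 (12.7%). Of 11 other snoRNP factors the edgeR fit of all 9 libraries called 1 lower (2.16% of all features). It was RVB2, an ATPase of snoRNP assembly, with 221 ± 9.59 CPM in deletion and 259 ± 2.68 CPM in wild-type libraries (adjusted p = 0.0270, edgeR). The median of the 11 was −0.00, and 6 were below 0. DESeq2 and limma-voom each called 1 lower (3.89% and 1.98%). The edgeR fit of 6 libraries and limma-voom with quality weights each called 3 lower (12.7% and 12.3%) and 1 higher (14.1% and 13.9%). The medians were −0.10 for 18 RNA polymerase I genes, −0.10 for 10 RNA polymerase III genes and −0.04 for 16 exosome and trimming genes, with none called in the edgeR fit of all 9 libraries, by DESeq2 or by limma-voom. The edgeR fit of 6 libraries called 8 lower in the first of these lists and 5 lower in the third. In the second it called 3 lower and 2 higher. Of all features that fit called 12.7% lower and 14.1% higher. With quality weights limma-voom called 7 lower, 2 lower and 2 higher, and 5 lower in the same order. Its shares of all features were 12.3% lower and 13.9% higher. At an unadjusted p under 0.05 these 3 lists held 1, 2 and 3 genes, beside 1302 of the 5970 features tested. In construct against wild type, the medians were −0.19 for the 53 small subunit and −0.18 for the 48 large subunit factors. Of these, 52 and 48 were below 0, against 47.9% of all features. In 29 and 28 every construct library was below every wild-type library (8.58%). The edgeR fit of all 9 libraries called none (0.067% lower), and DESeq2 called 1 and 3 lower (0.553%). Against the deletion strain their medians were −0.05 and −0.04.

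The ribosomal protein genes had changes of the other sign. Of the 137 genes of cytosolic ribosomal proteins, 13 rose and none fell in the deletion strain against the wild type by the edgeR fit of all 9 libraries, where 4.24% of all features were called higher. DESeq2 called 18 higher (6.11% of all features), and the edgeR fit of the 6 libraries called 58 higher (14.1%) and 1 lower (12.7%). The median log2 fold change was 0.09, and 85 had every deletion library above every wild-type library, which held for 21.1% of all features. In the construct strain 9 of them fell against the deletion strain, where 3.72% of all features were called lower. DESeq2 called 22 lower there (5.16%), and the edgeR fit of the 6 libraries none (2.07%). Their median there was −0.09, and against the wild type it was −0.01. Among 13 regulators of growth genes the edgeR fit of all 9 libraries called none in any comparison. In deletion against wild type the edgeR fit of 6 libraries and limma-voom with quality weights each called 2 higher (14.1% and 13.9% of all features). In construct against deletion DESeq2 called 1 lower (5.16%), and limma-voom with quality weights 1 lower (6.5%) and 1 higher (3.9%). At an unadjusted p under 0.05 there were 2 in deletion against wild type, 3 in construct against deletion and 2 in construct against wild type. Of the 5970 features tested there were 1302, 1343 and 764 in the same order. SFP1, an activator of ribosome biogenesis genes, averaged 124 ± 3.0 CPM in deletion and 112 ± 3.16 CPM in wild-type libraries (log2 fold change 0.14 ± 0.05, adjusted p = 0.127, edgeR). TOD6, a repressor that binds PAC, averaged 154 ± 18.6 CPM in construct and 188 ± 5.23 CPM in deletion libraries (−0.28 ± 0.08, adjusted p = 0.0713, edgeR).

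Stress genes are set beside the biogenesis genes library by library. For 26 genes controlled by Msn2 and Msn4, the activators of the general stress response, the median of log2 CPM minus the wild-type mean was −0.07, 0.25 and 0.49 for construct, −0.05, −0.00 and −0.08 for deletion, and −0.12, 0.16 and −0.03 for wild-type libraries. Construct replicate 3, the lowest library for the biogenesis genes, was thus the highest for these, while the deletion libraries stood near or below 0 in both lists. None of the 26 was called in a comparison by the edgeR fit of all 9 libraries. The edgeR fit of 6 libraries called 1 higher (14.1% of all features) and 1 lower (12.7%) in deletion against wild type. With quality weights limma-voom called 2 lower there (12.3%). In construct against deletion libraries DESeq2 called 6 higher (3.27% of all features), and limma-voom with quality weights 1 higher (3.9%) and 1 lower (6.5%). At an unadjusted p under 0.05 there were 10 of the 26 in that comparison, beside 1343 of the 5970 features tested. Their part in the values of the biogenesis genes was not tested.

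The values were also grouped by the motifs in the windows. In the deletion strain against the wild type, the median log2 fold change was −0.16 for the 47 genes with both cores, −0.19 for the 8 with PAC only and −0.17 for the 3 with RRPE only, and UTP22, with neither, had −0.07. Against the wild type in the construct strain the same groups had −0.18, −0.19 and −0.18, and UTP22 −0.21.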

How the data were processed

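Polyadenylated RNA was measured in 9 libraries, 3 per strain. The authors deposited raw counts per annotated feature; the submitters' processing notes name FastQC 0.11.5, STAR 2.7.0, DESeq2 1.34.0 and build R64. For the counting tool, its strand setting and its treatment of multi-mapping reads nothing was found: not given in the sources used here. Counts were tested with edgeR 4.0.16 (R 4.3.3): TMM factors, its default filter on low counts by strain (5970 of 7127 features kept), 1 quasi-likelihood fit of all 9 libraries, and Benjamini-Hochberg adjustment over all features tested at 0.05. Log2 CPM used a prior count of 2. DESeq2 1.42.0, limma 3.58.1 (voom, with and without library quality weights), other scaling and filters, the fit of 6 libraries, leaving out each library and a replicate block were alternatives. Gene names, coordinates and sequences came from RefSeq R64. Only the main edgeR fit was tried on simulated counts, and the alternatives and the motif search were not. The floors cover counting error only. Each SE comes from the edgeR quasi-likelihood fit and includes the spread between libraries, and each SD is the spread between the libraries of a strain. The genes and lists were chosen with earlier results of these data known. Values in every library are given for each called gene. They are also given for the gene of lowest p in each of the 8 role classes per comparison. Levels are given for the 3 highest and 3 lowest per coding length. From the other biogenesis lists the called genes FYV7 and RVB2 were named. Called genes of the ribosomal protein and a-specific lists were not named. SFP1 and TOD6 were named as growth regulators of lowest p in a comparison, though the edgeR fit of all 9 libraries called neither. NOG2's window, the short stretches and the note on UTP22 were chosen after their values were seen. Depths of 14380639 to 20140071 counts gave each of the 59 genes at least 378 counts per library. Same-numbered libraries of different strains did not deviate together (correlations -0.107 to 0.0745), so replicate numbers were not used as pairs. Replicates of a strain differed beyond counting noise (chi-square divided by its degrees of freedom, 2.91 to 65.8).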

Additional observations from a re-analysis of the deposited data

How the results depend on the processing

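The direction of the 59 genes in the deletion strain against the wild type was kept by all 59 in every alternative except without wild-type replicate 1 and without deletion replicate 2, with 58 each. In the construct strain against the wild type it was kept by all 59 except for 58 with no low-count filter and without wild-type replicates 2 or 3, and 55 with quality weights and without construct replicate 3. The number called lower in the deletion strain, 3, was 14 with no composition factors (5.29% of all features; the median was −0.22 and that of all features −0.05), 10 by DESeq2 (3.89%), 46 by limma-voom with quality weights (12.3%), 48 in the fit of 6 libraries (12.7%) and 1 at an adjusted p under 0.01 (0.67%). Leaving out 1 library gave 0 to 33: 0 without deletion replicate 2 (0.665%), 1 without each wild-type library and without deletion replicates 1 or 3 (0.814% to 0.914%), and 8, 6 and 33 without construct replicates 1, 2 and 3 (2.9%, 4.02% and 8.66%). NUG1 kept its call in 8 of these 9 fits and had an adjusted p of 0.0501 without deletion replicate 2. In construct against deletion libraries the 1 called lower, NOG2, was 0 in the fit of 6 libraries and at an adjusted p under 0.01, and 0 to 1 on leaving out 1 library, with 0 to 2 called higher. In construct against wild-type libraries the count of 0 was 4 by DESeq2 (0.553%) and 0 to 4 on leaving out 1 library: 4 without construct replicate 1 (UTP20, TSR1, NOG1 and NOG2; 0.666%) and 1 without construct replicate 3 (NOG2; 0.616%). Leaving out 1 library moved the median log2 fold change of the 59 between −0.20 and −0.14 in deletion against wild type, −0.06 and 0.07 in construct against deletion, and −0.25 and −0.11 in construct against wild type. The number wholly below the wild type, recounted after seeing the data, was 55 to 56 in the deletion strain (23% to 24.4% of all features) and 38 to 48 in the construct strain (11.4% to 16.5%). Among the genes with the lowest p of a class, 1 changed sign: RRP12 in construct against deletion, −0.06, was 0.00495 without construct replicate 3, the highest of a range down to −0.10 on leaving out 1 library. The replicate block, with numbers that did not pair the libraries, called 1 of the 59 lower in deletion against wild type (1.61%), where 3 were called without it. The cause of these differences was not tested. Fits without construct libraries leave out the strain with the widest spread.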
